A study of Mus musculus with 15 samples.

Results

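The collagen chain genes were followed through lung neuroendocrine tumor cells in culture, the allografts grown from them and normal lung. They were taken as every row of the expression matrix whose gene name is Col, a number, the letter a and a number, which gave 44 of 55359 genes. By the structures that their proteins build, 11 encode fibrillar chains, 6 encode basement membrane (type IV) chains and 27 encode chains of other classes, among them 6 of type VI and 9 of the fibril-associated class. RNA had been sequenced from 15 samples of mouse in 5 groups of 3, which the labels call Lung, 57SCLC_cell, 57SCLC_allo, 46LCNEC_cell and 46LCNEC_allo, here also normal lung, the flasks and tumors of 57SCLC and the dishes and tumors of 46LCNEC. The lines came from QKO mice, whose floxed alleles include Rb1 and Trp53 and which carry a null Rbl1. The 46LCNEC line was made from a large cell neuroendocrine carcinoma that arose after airway infection with Ad-CMVcre, an adenovirus in which the CMV promoter drives Cre, and it grew as an adherent monolayer. The 57SCLC line was made from a small cell lung carcinoma after Ad-K5cre, in which Cre is driven by the keratin K5 promoter, and it grew as floating aggregates. The 46LCNEC_allo and 57SCLC_allo samples were tumors that formed after the cells had been injected under the skin of immunocompetent QKO mice in a mixture with Matrigel, a basement membrane protein extract. The Lung samples were normal lung from littermates of the injected mice. Each line is 1 line, and its culture samples were separate dishes or flasks at 1 passage, which differed between the lines. Neither the labels nor the methods give the ages of the mice or say that the tumors came from separate mice. P-values therefore measure the spread between these samples.

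Collagens are trimers of alpha chains wound into a triple helix, and each gene encodes 1 chain. Type I, III and V chains form the banded fibrils that fibroblasts lay down in connective tissue, while type IV chains form the sheet-like network of basement membranes and in the lung a network of the alpha3, alpha4 and alpha5 chains lies beneath the alveolar epithelium. Type VI chains form beaded filaments next to cells, and the fibril-associated collagens sit on the surface of fibrils. Before and after secretion the chains are hydroxylated, folded with the chaperone Serpinh1, trimmed by proteases and crosslinked by lysyl oxidases.

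The libraries held 9480244 to 44876572 reads assigned to genes, with a median of 26502525, and values at or under 3 reads in a library were taken as not detected at this depth. Of the 44 genes, 41 reached 10 normalized counts in at least 3 of the 15 samples, and the others were Col9a1, Col10a1 and Col19a1. Col10a1 was listed at 0 in every sample. So were Aspn, Ogn, Omd, Acta1 and Itgam from other lists, among them genes of common cell types, so a gene listed at 0 throughout may not be absent. The lung epithelial genes Sftpc and Scgb1a1 were high in Lung alone, where Scgb1a1 had 151023, 219541 and 183536 normalized counts. Of the 5 neuroendocrine markers, Chga, Syp, Insm1 and Scg3 were at 0 to 18.5 normalized counts in the 46LCNEC samples, whose label is neuroendocrine, and Ncam1 was at 28614, 29684 and 31510 in the dishes and 3058, 7384 and 4040.0 in the tumors. These are RNA values, while the paper reports protein staining of chromogranin A in the large cell allografts and of NCAM in the cultured large cell tumor cells. Among the 57SCLC_cell flasks, flask C stood apart for some genes, such as the prolyl hydroxylase gene P4ha1 with 349.7, 358 and 1712 normalized counts in flasks A, B and C.

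The classes were set against each other as normalized counts per kb of merged exons, summed over the genes of a class. The fibrillar sum was 15150.4 ± 883 per kb (SD, n = 3) in the 46LCNEC dishes, 78712 ± 28516 in the 46LCNEC tumors, 57.5 ± 14.9 in the 57SCLC flasks, 6138 ± 1399 in the 57SCLC tumors and 1800.4 ± 346 in Lung. No sample of a group reached the range of another group on this sum. The type IV sum followed another order, with 3168 ± 348 per kb in Lung, 1924 ± 571 in the 46LCNEC tumors, 1152 ± 62.01 in the 57SCLC tumors, 392 ± 49.03 in the 57SCLC flasks and 201 ± 12.9 in the 46LCNEC dishes, and here too the ranges did not overlap. The other classes together had 9986 ± 101, 26704 ± 3629.7, 2053 ± 111, 4553 ± 773 and 4194 ± 218 per kb in the 46LCNEC dishes, 46LCNEC_allo, 57SCLC_cell, 57SCLC_allo and Lung, where the ranges of 57SCLC_allo and Lung overlapped. Fibrillar chains made up 72.2% ± 5.81 of the collagen level in the 46LCNEC tumors, 59.8% ± 1.61 in the 46LCNEC dishes, 51.6% ± 2.33 in the 57SCLC tumors, 19.6% ± 2.46 in Lung and 2.30% ± 0.642 in the 57SCLC flasks. All 44 genes together took 2.37% to 4.02% of the reads of a 46LCNEC_allo tumor and 0.0713% to 0.0784% of those of a 57SCLC_cell flask. Among all genes ranked by mean level per kb of merged exons, Col1a1 was number 11, Col3a1 number 24 and Col1a2 number 32 in the 46LCNEC tumors.

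**Figure D1:**
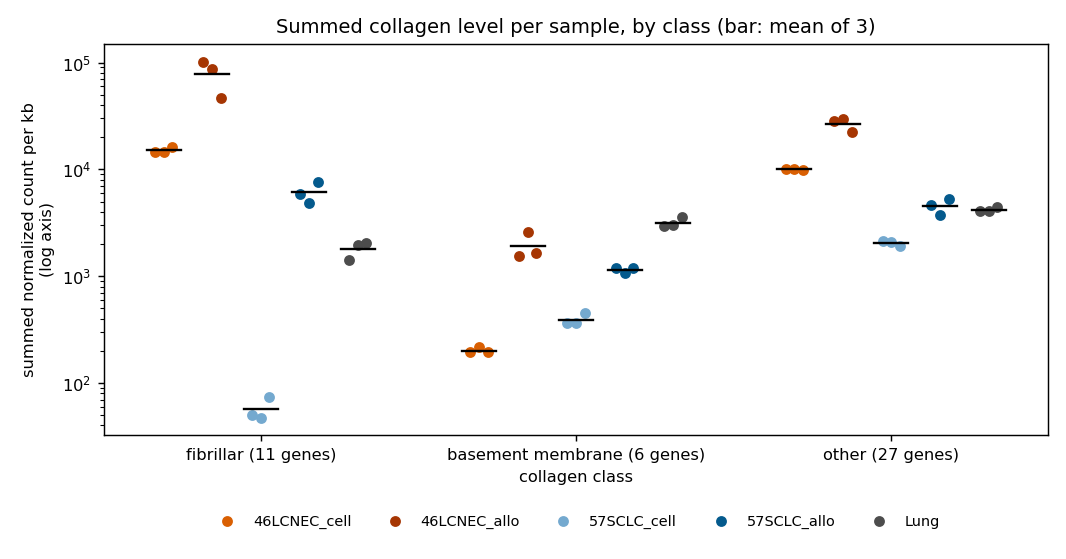
Summed normalized count per kb of merged exons on a log axis, for the 3 classes of collagen chain genes. Points are the 3 samples of each group and bars their mean. The fibrillar points of 57SCLC_cell lie between 47.5 and 74.5 per kb and those of 46LCNEC_allo between 46800.4 and 101697, while Lung holds the highest type IV points.

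**Figure D2:**
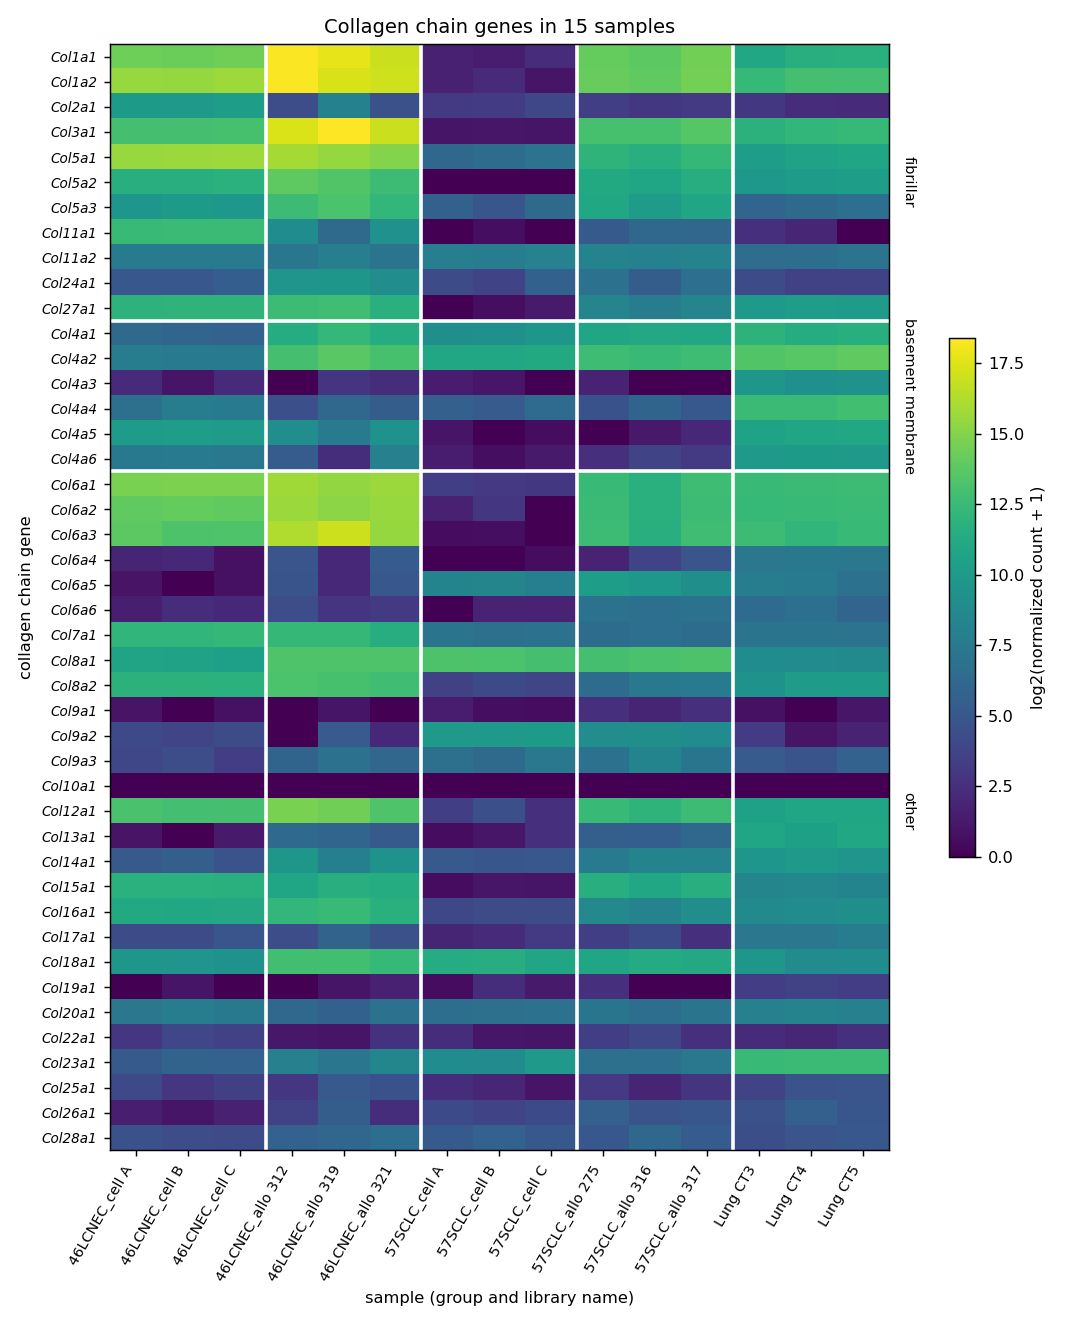
log2(normalized count + 1) of the 44 collagen chain genes in rows, by class, in the 15 samples in columns, by group. Most fibrillar and type VI rows are dark in the 3 57SCLC_cell columns, while Col11a2, Col5a1 and Col6a5 are not. The Col8a1, Col9a2 and Col4a2 rows are brighter in the same columns, and Col10a1 is at 0 throughout.

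The promoters of 3 genes are shown because their levels followed different courses, Col1a1 and Col3a1 being near the floor in the 57SCLC flasks and Col8a1 having overlapping levels in the flasks and the tumors. Each run holds the 250 bases before the start of the canonical transcript, read from the GRCm39 genome on the gene's strand. They are chr11:94826800-94827049 for Col1a1 on the plus strand, chr1:45350448-45350697 for Col3a1 on the plus strand and chr16:57575101-57575350 for Col8a1 on the minus strand, and no annotated exon lies in them. Capitals mark the CCAAT box (letters CCAAT), the GC box (letters GGGCGG) and the TATA box (letters TATAAA), searched on both strands. A CCAAT box on the opposite strand reads ATTGG here, while a GC box there reads CCGCCC.
Col1a1: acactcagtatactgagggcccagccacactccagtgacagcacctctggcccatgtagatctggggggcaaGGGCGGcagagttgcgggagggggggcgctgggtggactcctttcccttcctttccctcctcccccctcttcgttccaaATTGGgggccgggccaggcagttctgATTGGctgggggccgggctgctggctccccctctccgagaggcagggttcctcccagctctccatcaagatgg
Col3a1: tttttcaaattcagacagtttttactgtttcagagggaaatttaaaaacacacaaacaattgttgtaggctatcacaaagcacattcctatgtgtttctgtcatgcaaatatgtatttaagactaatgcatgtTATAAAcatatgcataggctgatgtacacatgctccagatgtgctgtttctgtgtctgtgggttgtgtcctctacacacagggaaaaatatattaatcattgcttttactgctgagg
Col8a1: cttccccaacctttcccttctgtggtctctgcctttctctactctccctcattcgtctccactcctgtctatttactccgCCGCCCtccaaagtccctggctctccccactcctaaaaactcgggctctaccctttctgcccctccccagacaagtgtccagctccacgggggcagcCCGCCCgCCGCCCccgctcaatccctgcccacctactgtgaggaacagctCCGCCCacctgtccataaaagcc
Col1a1 held CCAAT on the opposite strand at 95 to 99 and at 69 to 73 bases before the start and GGGCGG at 173 to 178. Col3a1 held TATAAA at 112 to 117 bases before the start, and Col8a1 held GGGCGG on the opposite strand at 4 places, of which the nearest was 18 to 23 bases before it. The share of all 21770 protein-coding promoters of this length with the letters was 36.5% for the CCAAT box, 36.3% for the GC box and 11.9% for the TATA box, and among the 44 collagen promoters it was 34.1%, 47.7% and 15.9%. These matches are a description of the letters and were not set against the expression values.

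Col1a1 (chromosome 11, 94827050 to 94843868) and Col1a2 (chromosome 6, 4504814 to 4541555) encode the 2 chains of type I collagen. Col1a1 had 20720, 19769 and 22399 normalized counts in the 46LCNEC dishes A, B and C and 2.18, 1.81 and 4.17 in the 57SCLC flasks A, B and C. In the tumors it had 330665, 216112 and 122566 in the 46LCNEC tumors 312, 319 and 321 and 17116, 14152 and 22517 in the 57SCLC tumors 275, 316 and 317, and it had 2105, 3024 and 3349 in Lung CT3, CT4 and CT5. All later values follow this order of samples. The 46LCNEC tumors lay above all other samples and the flasks below, while the 46LCNEC dishes and the 57SCLC tumors overlapped, as tumor 317 was just above dish C. Col1a2 had 49258, 46908 and 54461 in the 46LCNEC dishes, 2.18, 3.62 and 1.04 in the 57SCLC flasks, 317378, 158281 and 137027 in the 46LCNEC tumors, 17788, 15174 and 23909.7 in the 57SCLC tumors and 5143, 7959 and 7534 in Lung. In its merged exons, 10.3% of the bases are shared with another annotated gene. For Col1a2 no groups overlapped, and the dishes were above the 57SCLC tumors.

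Col3a1, whose chain forms the homotrimer of type III collagen, had 8049, 8249.9 and 8529 normalized counts in the 46LCNEC dishes, 1.09, 1.206 and 1.04 in the 57SCLC flasks, 166609, 348626 and 123018 in the 46LCNEC tumors, 8527, 8293 and 11840.3 in the 57SCLC tumors and 3647, 4567 and 5274 in Lung. The 46LCNEC dishes and the 57SCLC tumors overlapped here too, and the flasks held at most 2 reads. Col5a1, a chain of the type V collagen that helps to start fibrils, had 48508, 50494 and 54636 in the 46LCNEC dishes, 70.9, 88.7 and 128 in the 57SCLC flasks, 62919, 45738 and 32162 in the 46LCNEC tumors, 3986, 2969 and 4853 in the 57SCLC tumors and 1290.1, 1572 and 1823 in Lung. Its 46LCNEC dishes and tumors overlapped, and per kb of merged exons its level in the dishes was 5870.3 ± 358 (SD, n = 3), beside 3969 ± 306 for Col1a2 and 3192 ± 203 for Col1a1. Per kb of the canonical transcript, a length chosen after seeing the data, these levels were 6064, 9369 and 3535, so the order of Col5a1 and Col1a2 depends on the length. In the 46LCNEC tumors the levels per kb of merged exons were 33975 ± 15871 for Col1a1, 20702 ± 11645 for Col3a1 and 16145 ± 7792 for Col1a2, with overlapping ranges, and per kb of the canonical transcript they were 37625, 38237 and 38109.5. Within single tumors, Col1a1 was above Col1a2 on merged exons, with ratios of 2.01, 2.63 and 1.72 in tumors 312, 319 and 321. On the canonical transcript their mean ratio was 0.995, so their order depends on the length. On merged exons Col3a1 was above Col1a1 in tumor 319 alone.

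The lines were first compared in culture, which asks how the tumor cells differ outside an animal. Of the 44 genes, 35 passed the filter of 10 normalized counts in 3 of the 6 samples, and 9 were higher and 21 lower in the 57SCLC flasks than in the 46LCNEC dishes where a call needs an adjusted p up to 0.01 together with a fold of 2 or more. Over all 16920 genes tested, 23.9% were called higher and 22.2% lower, so the 9 higher were near the share of all genes. In the fibrillar class 9 of 11 were lower, and in type VI 3 of the 4 tested were. The fibrillar genes Col11a2 and Col24a1 were not called, with log2 differences of 0.34 and -0.60. Col11a2 had 230, 221 and 290 normalized counts in the flasks and made up 57.9% of their fibrillar sum per kb. The 3 members with the largest falls were Col1a2, Col6a3 and Col1a1. Col1a2 fell by 13.98 on the log2 scale (SE 0.27, limma with Benjamini-Hochberg adjusted p = 6.49e-09), Col6a3 by 13.003 and Col1a1 by 12.51, where the sizes depend on the pseudocount of 1 since the flasks held few reads of them. Col5a2, the partner chain of Col5a1, was at 0 in every flask beside 3066, 3023 and 3443 normalized counts in the dishes, so it was at least 1756-fold lower. In all, 12 of the 44 genes were at or under 3 reads in each of the 3 flasks, among them Col3a1, Col6a3, Col11a1, Col15a1 and Col27a1.

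The 57SCLC flasks were not without collagen transcripts. Col8a1, a short chain that forms hexagonal networks, had 9709.8, 9225 and 8203 normalized counts in the flasks and 1711, 1539.6 and 1375 in the 46LCNEC dishes, a log2 difference of 2.55 (SE 0.10, adjusted p = 1.83e-07). Col9a2, a chain of the fibril-associated type IX collagen of cartilage, had 988, 1009 and 1063 in the flasks and 15.9, 13.2 and 17.7 in the dishes, a difference of 5.95 (SE 0.16, adjusted p = 2.20e-08). The groups were far apart in both. Its partner chains did not share that level, with Col9a1 at 1.64, 0.603 and 0.521 and Col9a3 at 113, 83.2 and 163 in the flasks. Col6a5, a long type VI chain, had 309.8, 339.5 and 244 in the flasks while the dishes held at most 1 read, and Col23a1, a transmembrane collagen, had 485, 475 and 993 in the flasks and 36.6, 57.4 and 53.8 in the dishes. Flask C was higher than flasks A and B for Col23a1, and without it the log2 difference was 3.28 in place of 3.63. Col4a1, Col4a2, Col9a3, Col18a1 and Col26a1 were the other members called higher in the flasks. Among those lower, Col4a4 lost its call without dish B or C or flask A or B.

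Chains that are known from cartilage were found in the 46LCNEC dishes. Col11a1, a chain of the type XI collagen that joins type II fibrils, had 5431, 5862 and 5864 normalized counts there and 0, 0.603 and 0 in the 57SCLC flasks. Col2a1, the type II chain, had 1039.6, 962 and 1201 in the dishes and 7.64, 8.44 and 14.1 in the flasks, a log2 difference of -6.63 (SE 0.24, adjusted p = 9.63e-08). Both sets of samples were clearly apart, and of the 7 chondrocyte and osteoblast markers 6 were above 3 reads in every dish, with a summed level of 1809 to 2043 normalized counts beside 66.2 to 80.8 in the flasks. Of the 5 tested, Sp7, Acan and Ibsp were lower in the flasks and Comp was higher, with 52.9, 48.9 and 35.95 beside 4.69, 9.93 and 6.15, while Bglap did not pass the test. Acan alone had 827, 722 and 796 in the dishes. Col7a1, the anchoring fibril chain that ties epithelial basement membrane to the tissue below, had 4524, 4522 and 4927 in the dishes and 136, 112 and 123 in the flasks, where it was lower by 5.23 log2 units (SE 0.10).

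From culture to allograft, 35 genes were tested in the 46LCNEC line, and 19 rose and 3 fell. Over the 16375 genes tested, 14.4% were called up and 8.45% down, so the 3 that fell were near the share of all genes. The median log2 fold change of the tested fibrillar genes was 1.65, beside -0.000694 over all genes tested. The largest rises were those of Col4a1 with 5.64 (SE 0.27, adjusted p = 1.11e-05), Col4a2 with 5.58 (SE 0.21, adjusted p = 5.77e-06) and Col13a1 with 5.05. Col13a1, a transmembrane collagen, had 76.8, 62.1 and 35.4 normalized counts in the tumors and 0.938, 0 and 1.54 in the dishes, which held 2 reads at most, so the size of its change depends on the pseudocount. Among the fibrillar genes Col3a1 rose by 4.54 (SE 0.35, adjusted p = 8.25e-05), Col1a1 by 3.30 (SE 0.34, adjusted p = 0.00028) and Col1a2 by 1.92 (SE 0.33, adjusted p = 0.00251). Col5a3 rose from 813, 1045 and 901 to 6181, 9573 and 4626 normalized counts. Col5a1 at -0.18, Col7a1 at -0.16, Col15a1 at -0.46 and Col27a1 at 0.42 did not pass the test.

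The genes that fell in the 46LCNEC allografts were Col2a1, Col11a1 and Col4a4. Col11a2, another type XI chain gene, had a log2 fold change of -0.20 and was not called. Col2a1 had 19.9, 278 and 22.1 normalized counts in tumors 312, 319 and 321, a log2 fold change of -4.38 (SE 0.92, adjusted p = 0.00623), and Col11a1 had 486, 79.99 and 647, a change of -4.28 (SE 0.70, adjusted p = 0.00213). Tumor 319 was the highest of the tumors for Col2a1 and the lowest for Col11a1, and no tumor reached the range of the dishes for either gene. Without dish A, B or C the 3 falls lost their calls, and the limma adjusted p was 0.0286, 0.0236 and 0.0284 for Col2a1 and 0.013, 0.0114 and 0.0122 for Col11a1. The rises called were then 13, 15 and 14, and Col1a2, Col5a2, Col16a1 and Col28a1 were among those lost each time. Col2a1 was also not called with edgeR (adjusted p = 0.024) or without tumor 312 or 321, and without tumor 312, 319 and 321 the falls called were 1, 5 and 5. The log2 fold change of Col2a1 was -5.60 without tumor 319, and it stayed at or under -3.73 in each fit with a sample left out.

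In the 57SCLC line 33 genes were tested between flasks and tumors, and 21 rose and 1 fell, against 14.4% and 2.29% of the 17078 genes tested. The 1 that fell was near the share of all genes. Col1a2 rose by 12.55 (SE 0.30, adjusted p = 1.62e-07), Col1a1 by 12.26 (SE 0.26, adjusted p = 1.31e-07) and Col3a1 by 12.12 (SE 0.19, adjusted p = 5.57e-08) on the log2 scale, sizes that again depend on the pseudocount. Col5a2, at 0 in every flask, had 2317, 1846 and 2895 normalized counts in the tumors and was at least 1300.3-fold higher there. All 5 tested type VI genes rose. Col6a1, which encodes a core chain of the type VI filament, had 9.82, 7.24 and 6.77 normalized counts in the flasks and 5783, 3322 and 6611 in the tumors, beside 26944, 28291 and 28189.5 in the 46LCNEC dishes, 56728, 44923 and 51665 in the 46LCNEC tumors and 5489, 5875 and 6413 in Lung. The tumors of the 57SCLC line thereby reached the range of Lung for Col6a1, where the groups overlapped. Col6a2 had 15140.3, 16677 and 15675 in the 46LCNEC dishes, 2.18, 6.63 and 0 in the 57SCLC flasks, 50674, 38673 and 48048 in the 46LCNEC tumors, 6023, 3236 and 6278 in the 57SCLC tumors and 5190.4, 5553 and 5997 in Lung. Col6a3 had 13724, 9775 and 10214, 0.545, 0.603 and 0, 76581, 130109 and 46916, 6346, 3036 and 6901 and 6436, 4551 and 5414 in the same groups. For both genes the 57SCLC tumors overlapped Lung and lay far above the flasks.

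Col23a1 was the member that fell in the 57SCLC allografts, by 2.30 on the log2 scale (SE 0.31, limma adjusted p = 0.000549), to 108, 106 and 165 normalized counts. Without flask C the fall was 1.95. Under trimmed-mean (TMM) or upper-quartile scaling 2 members fell in place of 1, as they did without tumor 316. Col8a1 had 8084, 8907 and 10025 in the tumors, a log2 difference of -0.01 (SE 0.11) from the flasks, and the groups overlapped. Col18a1, whose C-terminal fragment is endostatin, had 2708, 2836 and 1772 in the flasks and 1831, 2588 and 2246 in the tumors, a difference of -0.12 (SE 0.20) that did not pass the test. In its merged exons 12.7% of the bases are shared with Slc19a1. Col9a2 was lower in the tumors by 0.96 log2 units (SE 0.09, limma adjusted p = 6.6e-05), without overlap. It missed a call only because this size was just under the threshold of 1.

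Markers of fibroblasts, vessels and leukocytes moved with these changes. In every 46LCNEC dish 6 of the 8 fibroblast markers and all 8 pericyte and smooth muscle markers were above 3 reads. So were 4 of the 8 endothelial and 3 of the 7 leukocyte markers. In every 57SCLC flask 4 fibroblast, 5 pericyte and smooth muscle, 3 endothelial and 3 leukocyte markers were above 3 reads. These lists therefore do not mark host cells alone. The 8 fibroblast markers, of which Dcn and Lum are also counted below among the fibril-binding proteoglycans, summed to 4323 to 4802 normalized counts in the 46LCNEC dishes and 57276 to 94739.5 in the tumors, and to 141 to 189 in the 57SCLC flasks and 5551 to 7732 in the tumors. Of these 8 markers, 7 rose in the 46LCNEC and 8 in the 57SCLC allografts, against 14.4% of all genes tested in each line. The 8 endothelial markers all rose in both lines, from 406 to 490.0 to 7044 to 11839.7 in 46LCNEC and from 128 to 135 to 3400.3 to 4761 in 57SCLC, and Tie1 was at 0 in each dish and flask. Pericyte and smooth muscle markers summed to 6709 to 7405 in the 46LCNEC dishes, 16999 to 34363 in their tumors, 416 to 480.4 in the 57SCLC flasks and 8151 to 12110.2 in their tumors, and the 7 leukocyte markers to 351 to 406, 8164 to 14615, 267 to 293 and 2816 to 4673. Summed adipocyte, skeletal muscle and Schwann cell markers reached at most 327, 73.7 and 149.8 in the 6 tumors. Ncam1, high in the 46LCNEC dishes, fell by 2.73 log2 units in the 46LCNEC tumors, while in 57SCLC it differed by 0.26 and was not called. The part of host cells in the collagen changes was not tested. In whole tumors and lung, fewer cells of a type and less RNA per cell cannot be told apart.

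The change from culture to allograft was then compared between the lines in 1 model of the 12 samples. Of 40 genes tested, 17 had a higher and 5 a lower log2 change in 57SCLC than in 46LCNEC, whatever the direction in each line, against 10.8% and 6.78% of the 18440 genes tested. Col15a1, a basement membrane zone collagen, had 3487, 3503 and 3317 normalized counts in the 46LCNEC dishes, 1848, 3179 and 2642 in the 46LCNEC tumors, 0.545, 1.206 and 1.04 in the 57SCLC flasks, 2932, 1986 and 3197 in the 57SCLC tumors and 332, 369 and 322 in Lung, and its changes differed by 10.90 (SE 0.32, adjusted p = 2.69e-09) log2 units. The tumors of both lines overlapped for Col15a1 although the cultures were far apart. Col1a2 followed with 10.62 (SE 0.46, adjusted p = 1.96e-08) and Col11a1 with 9.86 (SE 0.87, adjusted p = 4.88e-06). Col11a1 fell in one line and rose in the other, where it had 35.9, 69.4 and 66.95 normalized counts in the tumors. Col23a1 rose in 46LCNEC and fell in 57SCLC, and its changes differed by -4.56 (SE 0.51, adjusted p = 3.61e-05), with 253, 148 and 348 in the 46LCNEC tumors, and those of Col4a1 and Col4a2 by -4.04 and -4.01. Col8a1 rose to 10363, 10309.6 and 10166 in the 46LCNEC tumors, above the 57SCLC flasks and tumors, and its changes differed by -2.75 (SE 0.15). Calls near the threshold were those of Col5a3, lost in 9 of the 12 fits without 1 sample, and Col22a1, lost in 8 of them. Col22a1 was low throughout, with 7 to 14 reads in the dishes and 1 to 5 in the 46LCNEC tumors. It had 2 to 8 reads in the flasks and 4 to 10 in the 57SCLC tumors.

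**Figure D3:**
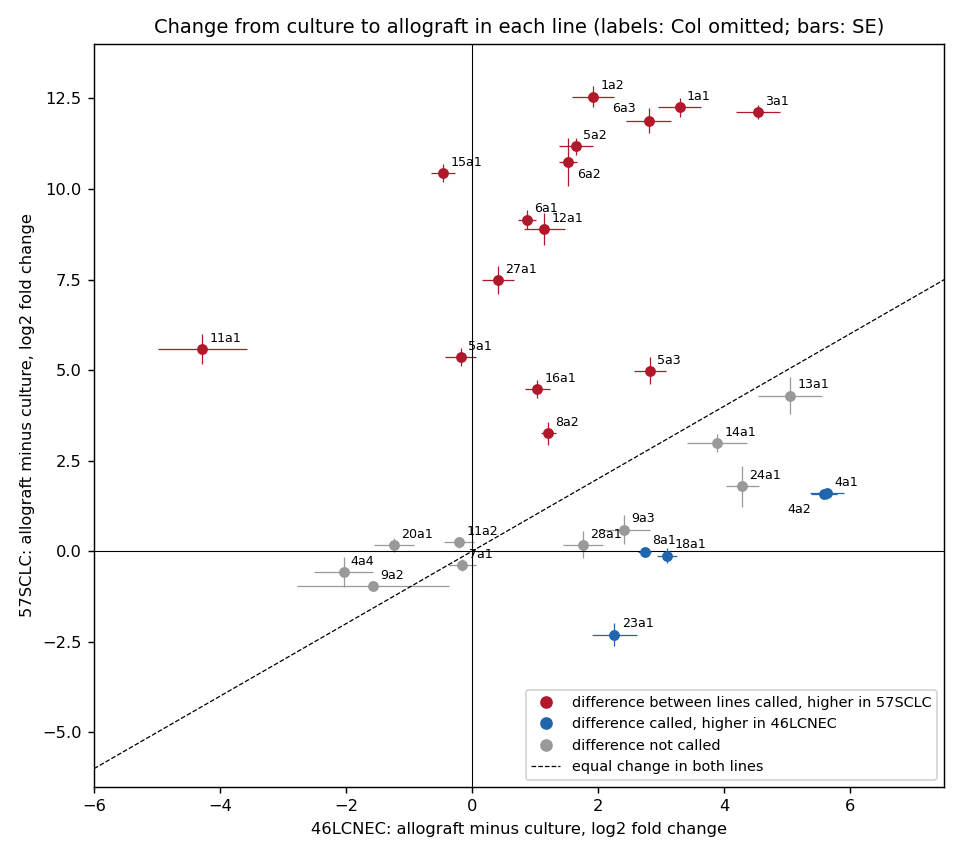
log2 fold change from culture to allograft of the 30 collagen chain genes tested in both lines and in the difference between them, in 46LCNEC on the horizontal and in 57SCLC on the vertical axis, with SE bars and a dashed line of equal change. Red points (15) had a higher and blue points (5) a lower log2 change in 57SCLC than in 46LCNEC at the thresholds used. Col1a2 stands at 1.92 and 12.55, Col11a1 on the left at -4.28 and 5.58, and Col4a1 on the right at 5.64 and 1.60.

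Both kinds of allograft were also set against normal lung, with the same 3 Lung samples in each comparison. In 46LCNEC_allo 39 genes were tested, and 20 were higher and 9 lower than in Lung, where 13.4% and 22.1% of 18033 genes were. The 9 lower were thus near the share of all genes. Col11a1 was higher by 6.72 (SE 0.98, adjusted p = 0.00121), Col5a3 by 6.29 (SE 0.30, adjusted p = 1.53e-05) and Col1a1 by 6.22 (SE 0.38, adjusted p = 3.26e-05) log2 units, and Lung held 4.48, 2.99 and 0 normalized counts of Col11a1 and 64.3, 79.8 and 107 of Col5a3. Lung had at most 6 reads of Col11a1, so the size of that value depends on the pseudocount. The other fibrillar genes called higher were Col24a1, Col3a1, Col5a1, Col1a2, Col5a2 and Col27a1. The median over the 11 fibrillar genes was 4.87, beside -0.14 over all genes tested. Summed fibroblast markers were at 57276 to 94739.5 normalized counts in these tumors and 17607 to 20030.4 in Lung, with Lum, Postn and Fap of the 8 higher and Pi16 and Dpt lower, and their part in the fibrillar differences was not tested. Lower in the tumors were Col4a3 by 7.70, Col4a4 by 7.28 and Col13a1 by 4.97 log2 units, with 1795, 1415 and 2142 normalized counts of Col13a1 in Lung. Col23a1, Col6a5, Col6a6, Col17a1, Col4a5 and Col20a1 were also lower. The count of 9 was 4, 4 and 5 without CT3, CT4 and CT5, and Col17a1, Col20a1, Col4a5 and Col6a5 were among those lost each time. Col28a1, called higher, lost its call in every fit without 1 sample.

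In 57SCLC_allo 39 genes were tested, and 16 were higher and 14 lower than in Lung, where 18.9% and 26.9% of 18517 genes were. Col9a2 was higher by 7.05 (SE 0.53, adjusted p = 8.68e-06), Col11a1 by 4.33 and Col5a3 by 4.27 log2 units. Col9a2 had 509.9, 555 and 503 normalized counts in the tumors, 0, 38.9 and 3.32 in the 46LCNEC tumors and 8.22, 1.0 and 2.34 in Lung, and Col5a3 had 1956, 1074 and 1919 in the 57SCLC tumors and 51.8, 28.9 and 80.2 in the flasks. For both genes the 57SCLC tumors lay above Lung without overlap. The type I, III and V chain genes Col1a1, Col1a2, Col3a1 and Col5a1 were higher by less than in the 46LCNEC tumors, with 2.67 for Col1a1, 1.46 for Col1a2, 1.08 for Col3a1 and 1.32 for Col5a1, beside 6.22, 4.82, 5.44 and 4.87 there. The test of this difference is the comparison of the tumors below. Not all fibrillar genes followed, since Col11a2 was higher than in Lung by 1.46 here and had a log2 difference of 0.67, not called, in the 46LCNEC tumors, and Col27a1 was lower than in Lung by 1.89 here. Col3a1 lost its call without CT3 or tumor 317, where its log2 value was 0.94 and 0.92, and so did Col5a2, while Col9a3 lost it without CT3 alone. Lower than in Lung were 5 of the 6 type IV genes, all 4 transmembrane collagens, of which Col25a1 lost its call without CT4, CT5, tumor 316 or tumor 317, and Col8a2, Col27a1, Col14a1, Col20a1 and Col6a4. Endothelial markers summed to 112893 to 124595 normalized counts in Lung and lung epithelial markers to 299429 to 398360, beside 163 to 952 in the 46LCNEC tumors and 24682 to 28800.5 in the 57SCLC tumors, where Nkx2-1 alone had 24223, 28338 and 26185. All 8 endothelial markers were lower in both kinds of tumor. Fibroblast markers summed to 5551 to 7732 in the 57SCLC tumors, below their range in Lung, with Fap higher and Dpt, Pdgfra, Pi16 and Dcn lower. Their part in these differences was not tested.

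The 6 type IV genes lie in 3 head-to-head pairs, on chromosome 8 (Col4a1 from 11248423 to 11362826 and Col4a2 from 11362471 to 11499287), chromosome 1 (Col4a4 from 82426144 to 82564800 and Col4a3 from 82564642 to 82699780) and chromosome X (Col4a6 from 139948399 to 140257072 and Col4a5 from 140258354 to 140472231). Col4a1 and Col4a2 encode the chains of the trimer found in basement membranes of most tissues, and 4.94% of the exon bases of Col4a1 are shared with overlapping genes. Col4a1 had 80.7, 62.9 and 54.6 normalized counts in the 46LCNEC dishes, 2751, 4888 and 2646 in the 46LCNEC tumors, 572, 602 and 878 in the 57SCLC flasks, 1896, 2162 and 2047 in the 57SCLC tumors and 3743, 2672 and 2993 in Lung. Col4a2 had 221, 191 and 197, 7948, 13622 and 8570.2, 2007, 2025 and 2318, 6664, 5629.9 and 6549.9 and 11103, 12359.9 and 15183 in the same groups. Both were lowest in the 46LCNEC dishes and were higher in the 57SCLC flasks by 3.34 (SE 0.21, adjusted p = 2.54e-06) and 3.38 (SE 0.10, adjusted p = 3.98e-08) log2 units. Both rose in the allografts of each line, and the 46LCNEC tumors overlapped Lung for both genes. Against Lung, Col4a2 in the 57SCLC tumors was lower by 1.03 log2 units, a call that was lost with edgeR at -0.96, with DESeq2 at -0.98, under both other scalings and without tumor 316 or CT5.

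Col4a3 and Col4a4, 2 of the chains of the alveolar and glomerular network, were high in Lung. Col4a3 had 820.0, 617 and 695 normalized counts in Lung and at most 6.32 in the other 12 samples, with no more than 6 reads in any of them. Col4a4 had 5905, 5985 and 7363 in Lung, 111, 212 and 201 in the 46LCNEC dishes, 21.2, 71.6 and 42.04 in the 46LCNEC tumors, 48.5, 38.6 and 85.97 in the 57SCLC flasks and 23.9, 59.5 and 32.9 in the 57SCLC tumors. It was lower than in Lung by 7.28 and 7.43 log2 units in the 46LCNEC and 57SCLC tumors. Its fall from the 46LCNEC dishes to the tumors, 2.04 (adjusted p = 0.00945), was not called with edgeR, with a pseudocount of 0.1, or without any 1 dish, tumor 312 or tumor 321.

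Col4a5 and Col4a6 were higher in the 46LCNEC dishes than in the 57SCLC flasks, and of these Col4a5 also separated the tumors of the lines. Col4a5 had 1123, 1276 and 1122 normalized counts in the 46LCNEC dishes, 509.9, 183 and 658 in the 46LCNEC tumors and 1673, 1804 and 2043 in Lung, but 1.09, 0 and 0.521 in the 57SCLC flasks and 0, 1.42 and 3.40 in the 57SCLC tumors, where no library held more than 3 reads. The 57SCLC samples were thus at the floor in culture and as tumors. Col4a6 had 169, 204 and 168 in the 46LCNEC dishes, 39.7, 4.21 and 252 in the 46LCNEC tumors, 1.64, 0.603 and 1.56 in the 57SCLC flasks, 4.79, 12.7 and 7.94 in the 57SCLC tumors and 925, 1066 and 961 in Lung. Tumor 319 of the 46LCNEC line was far below tumors 312 and 321 for Col4a6 and overlapped the 57SCLC tumors. The difference between the tumors of the lines was -7.49 (SE 0.71, adjusted p = 0.000186) for Col4a5 and -2.08 (SE 1.32, adjusted p = 0.219) for Col4a6, the second of which did not pass the test.

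**Figure D4:**
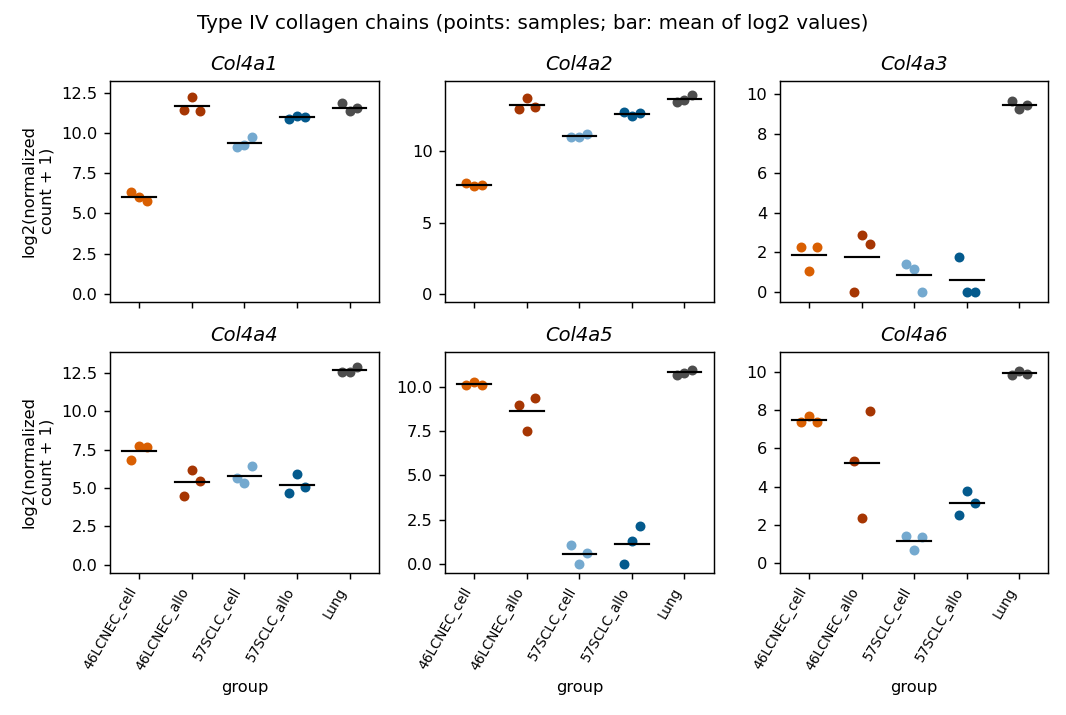
log2(normalized count + 1) of the 6 type IV collagen genes by group, 1 panel a gene, with a point per sample and a bar at the mean of the log2 values. Col4a1 and Col4a2 are lowest in 46LCNEC_cell, Col4a3 is near 0 outside Lung, and Col4a5 is near 0 in the 6 57SCLC samples, with at most 3.40 normalized counts.

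Between the tumors of the 2 lines, 3 of the 38 genes tested were higher and 17 lower in 57SCLC, against 16.1% and 14.2% of 17502 genes. Beside Col4a5, the members furthest below the 46LCNEC tumors were Col8a2 with -5.87 (SE 0.28, adjusted p = 1.58e-05) and Col7a1 with -5.44 (SE 0.23, adjusted p = 1.19e-05). Col8a2, the partner of Col8a1, had 3589.7, 3674 and 3390.4 normalized counts in the 46LCNEC dishes, 9219, 8496 and 7093 in the 46LCNEC tumors, 11.5, 16.9 and 13.5 in the 57SCLC flasks, 88.6, 173 and 179 in the 57SCLC tumors and 704, 1128 and 1175 in Lung. Col7a1 had 5013, 5009 and 2899 in the 46LCNEC tumors, 90.96, 105 and 89.6 in the 57SCLC tumors and 132, 136 and 126 in Lung. For both genes the tumors kept the order of the cultures, with no overlap. Col1a1, Col1a2, Col3a1 and Col5a1 were lower in the 57SCLC tumors by 3.55, 3.35, 4.35 and 3.55 log2 units. Col12a1, a fibril-associated chain of tendon and other dense tissue, had 9021, 7510.4 and 7998 in the 46LCNEC dishes, 26338, 21665 and 10308 in the 46LCNEC tumors, 9.82, 21.7 and 4.69 in the 57SCLC flasks, 5815, 4107 and 6331 in the 57SCLC tumors and 1506, 1803 and 1823 in Lung. Its difference between the tumors, -1.76 (adjusted p = 0.00587), was not called in 5 of the 6 fits without 1 sample, the exception being that without tumor 321.

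Higher in the 57SCLC tumors were Col9a2 by 6.55 (SE 1.223, adjusted p = 0.00384), Col6a5 by 5.82 (SE 0.80, adjusted p = 0.00101) and Col6a6 by 3.39 (SE 0.45, adjusted p = 0.000878) log2 units. Col6a5 had 1297, 885 and 571 normalized counts in the 57SCLC tumors, 26.5, 3.16 and 30.98 in the 46LCNEC tumors and 207, 181 and 124 in Lung. Col6a6 had 124, 106 and 113, 19.9, 6.32 and 7.74 and 85.96, 105 and 64.4 in the same groups, with 0, 2.41 and 2.61 in the flasks and 1.88, 4.41 and 3.08 in the dishes. The 46LCNEC tumors were near the floor for Col9a2, where tumor 312 was at 0 and tumor 319 at 38.9, and the call for Col9a2 was lost with a pseudocount of 0.1 and without tumor 321 or any 57SCLC tumor. Col8a1, Col4a1, Col4a2, Col13a1 and Col15a1 were among the 18 members that did not pass, with log2 differences of -0.20, -0.69, -0.64, -0.10 and 0.09.

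Chains that assemble with each other were compared as ratios of their levels per kb. The ratio of Col1a1 to Col1a2 was 0.805 ± 0.0109 (SD, n = 3) in the 46LCNEC dishes, 2.12 ± 0.464 in the 46LCNEC tumors, 1.82 ± 0.0291 in the 57SCLC tumors and 0.792 ± 0.0623 in Lung. It was higher in each of the 6 tumors than in any dish or lung, and it was not computed for the flasks, where both were near the floor. Merged exons count every annotated transcript, and with the length of the canonical transcript the 4 ratios were 0.378, 0.995, 0.854 and 0.372, so the level of a ratio depends on the length used while its fold between groups does not. The ratio of Col5a1 to Col5a2 was 20.7 ± 0.636 in the 46LCNEC dishes, 5.84 ± 0.484 in the 46LCNEC tumors, 2.14 ± 0.0723 in the 57SCLC tumors and 1.82 ± 0.0878 in Lung. The dishes stood apart from the other groups in this ratio. That of Col6a1 to Col6a2 was 3.31 ± 0.102, 2.10 ± 0.0812, 1.91 ± 0.09 and 1.997 ± 0.0125 in the same groups. Col4a2 exceeded Col4a1 in every sample, with a ratio of 3.25 ± 0.456 in the 46LCNEC dishes, 3.09 ± 0.246 in the 46LCNEC tumors, 3.30 ± 0.484 in the 57SCLC flasks, 3.23 ± 0.481 in the 57SCLC tumors and 4.39 ± 1.15 in Lung, with overlap between all groups. The ratio of Col8a1 to Col8a2 was 429 ± 103 in the 57SCLC flasks and 42.6 ± 14.02 in the 57SCLC tumors, beside 0.279 ± 0.0244 in the 46LCNEC dishes, 0.809 ± 0.102 in the 46LCNEC tumors and 0.323 ± 0.112 in Lung.

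Genes that modify and fold procollagen were lower in the 57SCLC flasks than in the 46LCNEC dishes for 15 of 18, with 1 higher. Over all genes tested, 22.2% were lower and 23.9% higher. Serpinh1 (HSP47), the collagen chaperone, had 1425, 1287 and 1509.9 normalized counts in the 46LCNEC dishes, 42275, 9762 and 7787 in the 46LCNEC tumors, 1.64, 0.603 and 2.61 in the 57SCLC flasks, 7756, 5122 and 7133 in the 57SCLC tumors and 8494, 10739 and 10040.3 in Lung. Plod2, a lysyl hydroxylase that acts on the collagen telopeptides, had 2990.2, 3322 and 3492, 1687, 3859.6 and 2744, 1.09, 0.603 and 1.56, 302, 214 and 315 and 1286, 1289.5 and 1564 in these groups. Neither gene had more than 5 reads in a flask. From culture to allograft 10 of the 18 rose in 57SCLC and 3 in 46LCNEC. Over all genes tested, 14.4% rose in each line, so the count in 46LCNEC was near that share. In 46LCNEC_allo against Lung 10 were higher and 2 lower, where 13.4% and 22.1% of all genes tested were. The largest rises were 5.29 log2 units for the prolyl hydroxylase gene P4ha3 and 4.13 for Fkbp10. In 57SCLC_allo against Lung P4ha3 was higher and 3 were lower, among them P3h2 with -3.83 and Colgalt2 with -3.001. Over all genes tested, 18.9% were higher and 26.9% lower there, so the list was below both shares. Between the tumors 11 were lower in 57SCLC, against 14.2% of all genes tested, with -3.93 for Fkbp10 and -3.25 for Plod2.

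Among the 13 genes of procollagen cleavage and crosslinking, the 12 tested were all lower in the 57SCLC flasks than in the 46LCNEC dishes. Over all genes tested, 22.2% were. Lox, the lysyl oxidase, had 115447, 122588 and 125716 normalized counts in the 46LCNEC dishes, 21249, 17330 and 12872 in the 46LCNEC tumors, 4.36, 9.65 and 1.56 in the 57SCLC flasks, 3756, 2646 and 4062 in the 57SCLC tumors and 962, 982 and 1594 in Lung. It fell by 2.85 log2 units in the 46LCNEC allografts, where Col1a1 and Col3a1 rose, and rose by 9.35 in the 57SCLC allografts, a difference of 12.20 (SE 0.55, adjusted p = 2.83e-08) between the lines. Loxl3 at -11.11 was the next largest of the list between the cultures. In the 46LCNEC allografts 4 of the 12 rose and 4 fell, with -2.40 for the procollagen C-proteinase gene Tll1, and in the 57SCLC allografts 9 of 11 rose, with 9.31 for Adamts2, the procollagen N-proteinase. Over all genes tested, 14.4% rose and 8.45% fell in 46LCNEC, and 14.4% rose in 57SCLC. Against Lung, 9 of the 12 were higher and 1 lower in the 46LCNEC tumors, while 3 were higher and 5 lower in the 57SCLC tumors, the latter being Pcolce2, Adamts3, Pcolce, Loxl4 and Adamts14. The shares of all genes higher and lower were 13.4% and 22.1% in the 46LCNEC tumors and 18.9% and 26.9% in the 57SCLC tumors. Pcolce2, an enhancer of C-proteinase, was lower in the 46LCNEC and 57SCLC tumors by 5.25 and 6.97 log2 units. Pcolce and Adamts3 were lower in the 57SCLC than in the 46LCNEC tumors by 4.58 and 6.43, and Adamts3 was also lower in the 57SCLC tumors than in Lung by 3.94. The changes of Loxl2 differed between the lines by 10.21.

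**Figure D5:**
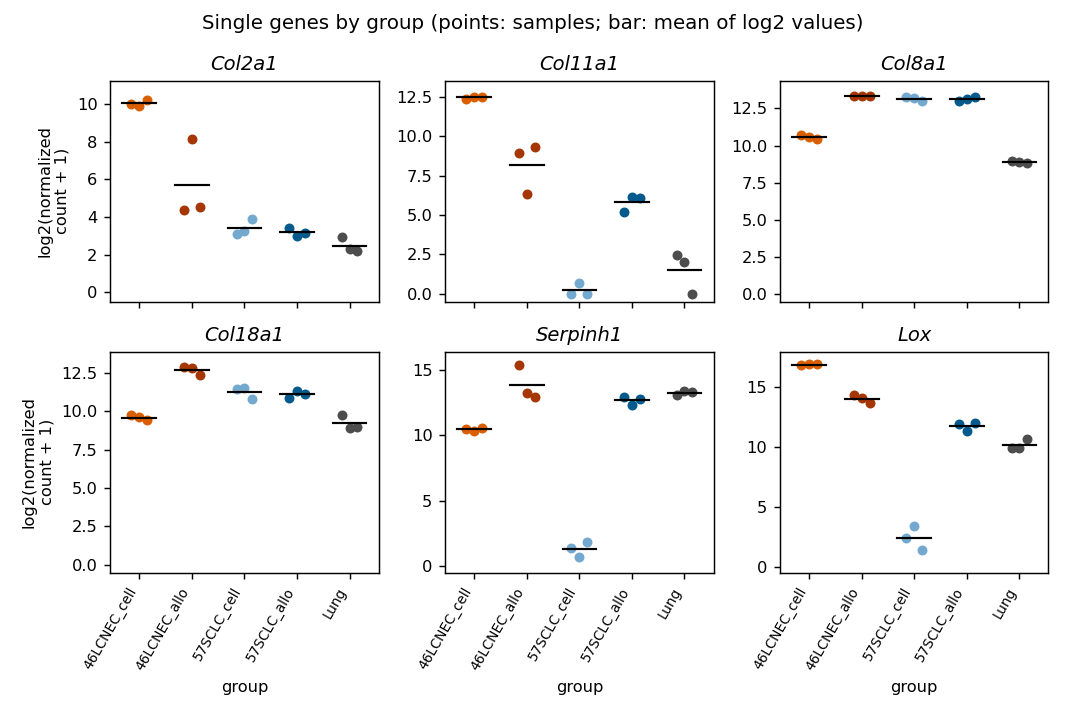
log2(normalized count + 1) of Col2a1, Col11a1, Col8a1, Col18a1, Serpinh1 and Lox by group, with a point per sample and a bar at the mean of the log2 values. Col8a1 sits at nearly the same height in 57SCLC_cell, 57SCLC_allo and 46LCNEC_allo, whereas Serpinh1 and Lox are near 0 in 57SCLC_cell, with at most 2.61 and 9.65 normalized counts.

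Of the 10 collagen receptor genes, 7 of the 8 tested were lower in the 57SCLC flasks than in the 46LCNEC dishes. Over all genes tested, 22.2% were. The integrin gene Itga1 was at 0 in every flask and had 251, 231 and 192 normalized counts in the dishes, 371, 165 and 501 in the 46LCNEC tumors, 1195, 661 and 1041 in the 57SCLC tumors and 9355, 9408 and 8982 in Lung. Itga2, which pairs with Itgb1 as Itga1 does, had 2.18, 1.81 and 1.56 in the flasks and 923, 1214 and 1275 in the dishes. Between culture and allograft 5 of 9 rose and 2 fell in 46LCNEC, and 6 of 9 rose in 57SCLC. Over all genes tested, 14.4% rose and 8.45% fell in 46LCNEC, and 14.4% rose in 57SCLC. Lair1, an inhibitory receptor of leukocytes, rose by 8.48 and 7.61 log2 units, and Ddr2, a receptor tyrosine kinase for fibrillar collagen, rose by 2.55 in the 46LCNEC allografts. Ddr2 and the uptake receptor Mrc2 were lower in the 57SCLC than in the 46LCNEC tumors by 4.15 and 4.09. Against Lung, Itga10, Mrc2, Itga11 and Ddr2 were higher and 3 receptor genes lower in the 46LCNEC tumors, while 6 were lower in the 57SCLC tumors and the other 4 were not called. Over all genes tested, 13.4% were higher and 22.1% lower in the 46LCNEC tumors, and 26.9% were lower in the 57SCLC tumors. The 3 lower in the 46LCNEC tumors were thus near the share of all genes. Itga10 was higher by 3.26 in the 46LCNEC tumors. The platelet receptor Gp6 was lower than in Lung by 6.13 in the 46LCNEC tumors and 7.07 in the 57SCLC tumors, with at most 2 reads in a tumor, while Itga1 was lower by 4.88 and 3.30 and Itga2 by 2.98 and 4.73 in the same comparisons. The log2 changes of Itga1 and Itga2 from culture to allograft were higher in 57SCLC than in 46LCNEC, where Itga2 fell, by 9.39 and 6.89.

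The small proteoglycans that bind collagen fibrils moved with the allografts of both lines. All 6 tested rose in 46LCNEC and all 5 tested in 57SCLC, against 14.4% of all genes tested in each line. Dcn (decorin) had 8.44, 11.04 and 13.8 normalized counts in the 46LCNEC dishes, 4101, 10947 and 13493 in the 46LCNEC tumors, 0, 0.603 and 0 in the 57SCLC flasks, 1106, 612 and 618 in the 57SCLC tumors and 2332, 3168 and 2105 in Lung. Bgn (biglycan) had 2191, 1864 and 1881, 65908, 15583 and 44734, 3.82, 4.22 and 2.61, 14317, 8622 and 15776 and 22418, 25612 and 24982. Dcn was thus near the floor in the flasks and low in the dishes, whereas Bgn was already at a higher level in the dishes. Lum rose by 11.32 in the 46LCNEC allografts. Fmod was higher in the 46LCNEC tumors than in Lung by 3.98 and lower in the 57SCLC than in the 46LCNEC tumors by 4.23, and it was lower in the flasks than in the dishes by 7.10, as was Bgn by 8.78. Kera, a proteoglycan of the cornea, had 11.9, 23.2 and 127 in the 46LCNEC tumors and was at 0 in the other 12 samples. Against Lung, Kera, Fmod and Lum of the 6 tested were higher and Prelp lower in the 46LCNEC tumors, where 13.4% and 22.1% of all genes were. In 57SCLC_allo, Prelp and Dcn of the 5 tested were lower than in Lung by 4.67 and 1.74 log2 units, where 26.9% of all genes were lower.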

How the data were processed

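Poly-A RNA of 15 samples was sequenced in read pairs. The authors used Rbowtie2 for alignment to GRCm39 and featureCounts with GENCODE M27 for counting per gene, and deposited the counts divided by DESeq2 size factors (unit signal, here normalized counts). Strand and multimapping settings are not given in the sources used here. The deposited values came back as whole reads in 100% of nonzero entries (tolerance 0.01 of a read), which gave each library's depth. Values at or under 3 reads in a library were taken as the floor, for counting error only.

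Samples were grouped by their labels. For 6 pairwise comparisons and 1 interaction between line and growth setting, limma 3.58.1 (trend, R 4.3.3) was fitted to log2(normalized count + 1) of all genes that reached 10 normalized counts in 3 or more of the samples compared. Fold changes are on this scale, which understates those of low genes. Calls needed both a p adjusted by Benjamini-Hochberg up to 0.01 and a log2 fold change of 1 or more in size. Alternatives were edgeR 4.0.16 and DESeq2 1.42.0 on the recovered reads, TMM and upper-quartile scaling, pseudocounts of 0.1 and 5, no filter, all 15 samples in 1 model, each sample left out (filter in 2 samples), a replicate block, and canonical transcript length, chosen after seeing the data. Between the cultures edgeR called 4118 genes higher and 3682 lower, beside 4043 and 3756 with limma. The steps were tested on simulated data.

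Levels were divided by merged exon length from GENCODE M39 on GRCm39, which held 54749 of the 55359 gene identifiers, and 1347 genes have no name in the matrix. The collagen genes, pathway lists and marker lists were chosen with earlier results of these data known. Values in every sample were given for the 4 fibrillar and 6 other members with the largest mean level per kb, all 6 type IV members and the 3 called members with the largest rise and fall of each comparison. From each pathway list, up to 2 called genes with the largest change per comparison were named, and other genes were named after their values were seen. An allele of the mouse model is not reported here. Lengths, promoters and figures used Python 3.11.15, numpy 2.4.6, pandas 2.3.3 and matplotlib 3.10.9.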

Additional observations from a re-analysis of the deposited data

Results flagged for a closer look

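The change from culture to allograft differed between the lines for 22 collagen genes by the interaction test in limma, with an adjusted p up to 0.01 and a log2 difference of 1 or more. Of the 40 collagen genes tested, 17 had a higher and 5 a lower log2 change in 57SCLC, against 10.8% and 6.78% of the 18440 genes tested. Values are the change in 57SCLC minus that in 46LCNEC, with 3 samples in each of the 4 groups. Among the fibrillar genes the differences were 10.62 for Col1a2, 9.86 for Col11a1, 9.53 for Col5a2, 8.96 for Col1a1, 7.58 for Col3a1, 7.07 for Col27a1, 5.54 for Col5a1 and 2.15 for Col5a3. Among the type VI genes they were 9.22 for Col6a2, 9.08 for Col6a3, 8.28 for Col6a1 and 4.18 for Col6a6. The other genes with a higher log2 change in 57SCLC were 10.90 for Col15a1, 7.75 for Col12a1, 3.55 for Col22a1, 3.45 for Col16a1 and 2.04 for Col8a2. Col22a1 had at most 14 reads in a sample, and its call and that of Col5a3 were lost in most fits without 1 sample. The genes with a lower log2 change in 57SCLC were -2.75 for Col8a1, -3.21 for Col18a1, -4.01 for Col4a2, -4.04 for Col4a1 and -4.56 for Col23a1. Col11a1 fell in 46LCNEC and rose in 57SCLC, and Col23a1 rose in 46LCNEC and fell in 57SCLC. Sizes for genes with few reads in the flasks, such as Col1a1, Col3a1 and Col15a1, depend on the pseudocount. A higher log2 change did not mean a higher level in the tumors. Col1a1 had 14152 to 22517 normalized counts in the 57SCLC tumors, up from 1.81 to 4.17 in the flasks. It had 122566 to 330665 in the 46LCNEC tumors, up from 19769 to 22399 in the dishes. For Col15a1 the tumors of both lines overlapped, and Col6a6 was higher in the 57SCLC tumors. Summed fibroblast, endothelial, pericyte and leukocyte markers also differed between the cultures and the tumors of both lines. The part of such cells in these differences was not tested.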

How the results depend on the processing

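Of 175 calls of collagen genes over the 7 comparisons, 163 kept call and direction under every alternative other than leaving out a sample, 149 with each sample left out and 147 under all, with no reversal. In 46LCNEC_allo against 46LCNEC_cell the 3 falls became 1 with edgeR and 5 with DESeq2. In 57SCLC_allo against 57SCLC_cell the 1 fall became 2 under TMM and 2 under upper-quartile scaling. With 1 sample left out, the collagen genes called up and down were 19 to 20 and 4 to 11 in 46LCNEC_allo against Lung, 13 to 16 and 12 to 14 in 57SCLC_allo against Lung, and 9 to 10 and 20 to 22 between the cultures. They were 2 to 4 and 16 to 18 between the tumors, 13 to 21 and 0 to 5 from culture to allograft in 46LCNEC, 20 to 22 and 1 to 2 in 57SCLC, and 15 to 18 and 5 to 6 for the difference between the lines. In limma without dish A, B or C no member was called down in the 46LCNEC allografts, while 6, 5 and 5 were lower by at least 2-fold with an unadjusted p under 0.05, and edgeR and DESeq2 were not run without single samples. The cause of these moves was not tested. edgeR moved the median of all genes by 0.11 log2 units in 46LCNEC_allo against Lung.

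With 1 sample left out, the summed fibrillar level per kb was 14641 to 15409 in the dishes, 67219.8 to 94668 in the 46LCNEC tumors, 48.9 to 62.4 in the flasks, 5382 to 6762 in the 57SCLC tumors and 1672 to 1997 in Lung. The type IV level was then 193 to 205 in the dishes, 1596 to 2117 in the 46LCNEC tumors, 364 to 407 in the flasks, 1133 to 1188 in the 57SCLC tumors and 2967 to 3281 in Lung. The other level was then 9939.5 to 10040 in the dishes, 25388 to 28774 in the 46LCNEC tumors, 2012 to 2116 in the flasks, 4201 to 4966 in the 57SCLC tumors and 4069 to 4272 in Lung. The summed level of the other classes in 46LCNEC_cell was 10382.5 per kb under TMM scaling. Per kb of the canonical transcript the fibrillar level was 22526 in the dishes, 122944 in the 46LCNEC tumors, 9428 in the 57SCLC tumors and 3073 in Lung. On that length the type IV level was 263 in the dishes and 1244 in the 57SCLC tumors. On that length the level of the other classes was 14174 in the dishes, 38113 in the 46LCNEC tumors, 2810.3 in the flasks, 6438 in the 57SCLC tumors and 5587 in Lung. The ratio of Col1a1 to Col1a2 became 0.378 in the dishes, 0.995 in the 46LCNEC tumors, 0.854 in the 57SCLC tumors and 0.372 in Lung. The ratio of Col5a1 to Col5a2 became 14.4 in the dishes, 4.07 in the 46LCNEC tumors, 1.49 in the 57SCLC tumors and 1.27 in Lung. The ratio of Col6a1 to Col6a2 became 2.56 in the dishes, 1.63 in the 46LCNEC tumors, 1.48 in the 57SCLC tumors and 1.55 in Lung. The ratio of Col8a1 to Col8a2 became 0.37 in the dishes, 1.07 in the 46LCNEC tumors and 569 in the flasks. These follow from the shorter length, which changes no test within a gene.

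The fit with a replicate block by letter, possible for the cultures alone, called the same numbers of collagen genes, 9 higher and 21 lower, and 4041 and 3756 of all genes. Deviations of same-lettered dishes and flasks correlated at 0.18, -0.19 and 5e-04 for A, B and C. Unlike letters reached similar sizes, with -0.23 for flask A and dish B and 0.24 for flask C and dish B. With 3 samples a line these values cannot decide on pairing, and the letters were not treated as pairs in the main fits. Depth limits the 57SCLC tumors most, since tumor 275 had 9480244 reads and a floor of 7.18 normalized counts.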
